A study of Mus musculus with 8 samples.

Results

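The PARP2 floxed mouse line was compared with the PARP1 floxed mouse line in cultured bone marrow myeloid cells. All 8 libraries of the series entered the comparison. They were the 4 libraries whose labels name the PARP2 line and the 4 whose labels name the PARP1 line, with genotype, deleted or not, as an additive term. The study asked how loss of either enzyme alters immature myeloid cells and set each deletion against its own littermates. The comparison described here asks another question, namely which genes differed between the lines on average over both genotypes. A called gene need not differ in both genotypes. In deleted cells the line difference also holds PARP2 deletion against PARP1 deletion. All mice were labelled C57BL/6 and 2 months old. PARP1 WT mice carried the PARP1 flox/flox alleles without Cre, and PARP1CKO mice carried them with lysozyme-Cre. PARP2 WT and PARP2CKO mice carried PARP2 flox/flox alleles in the same 2 forms. LyzM-Cre acts in the myeloid lineage and leaves other cells of the animal undeleted. Marrow cells of all groups were grown for 3 days with 40 ng/mL M-CSF, and no sort is named in the labels. There were 2 libraries in each of the 4 groups, described as biological duplicates, and whether animals were pooled is not given in the sources used here. Littermates existed only within a line. Line, colony, culture day and library preparation therefore cannot be told apart, and every difference below is a difference between 2 sets of 4 libraries that carry these names.

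PARP1 and PARP2 are nuclear enzymes that attach ADP-ribose to proteins at DNA breaks. M-CSF drives marrow precursors toward monocytes and macrophages, while lymphoid, erythroid and mast lineages receive no growth factor of their own in such a culture and decline. A floxed allele is made in embryonic stem cells, and the chromosome beside it is inherited with it through breeding, so lines of the same nominal strain can keep different alleles around and away from the targeted gene.

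The libraries held between 37852450 and 61845125 counts on genes, and a level of 1 CPM, the unit of counts scaled to library size used below, stood for between 38.7 and 59.7 counts. Myeloid genes were abundant in both lines. Csf1r, the M-CSF receptor, lay between 1134 and 1273 CPM over all libraries. Itgam, which encodes CD11b, lay at 881 to 956 CPM in the PARP1 line and 954 to 1035 CPM in the PARP2 line. The neutrophil gene S100a9 lay between 857 and 1129 CPM, so macrophage and granulocyte transcripts were present together, and the T cell genes Cd3e, Cd3d and Cd3g had at most 6 counts in any library. Values below are given in the order WT replicate 1, WT replicate 2, CKO replicate 1, CKO replicate 2 within each line.

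The targeted genes were read first. Parp1 was at 202, 211, 63.2 and 59.1 CPM in the PARP1 line and at 251, 155, 263 and 264 CPM in the PARP2 line. It was low in both PARP1CKO libraries only, and PARP2 WT replicate 2 lay below the other PARP2 line libraries. Parp2 was at 39.1, 40.8, 38.3 and 37 CPM in the PARP1 line and at 48.2, 48.3, 25.7 and 25.6 CPM in the PARP2 line, low in both PARP2CKO libraries only. Neither gene passed the test of the line difference (adjusted p = 0.0967 for Parp1 and 0.560 for Parp2). Lyz2 encodes lysozyme M and is the locus that holds the Cre driver. It stood at 5712, 6387, 3495 and 4334 CPM in the PARP1 line and 9725, 10804, 6742 and 5747 CPM in the PARP2 line. Within each genotype the PARP2 line libraries were the higher ones. The difference was 0.72 ± 0.08 on the log2 scale (standard error, here and below; adjusted p = 0.000563). Its close copy Lyz1 differed by 0.85 ± 0.07 (adjusted p = 0.000140), and reads may be shared between the pair.

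The line difference reached many genes. Of the 24062 genes counted, 13197 were tested. With edgeR's quasi-likelihood test and Benjamini-Hochberg adjustment, 2080 genes (15.8%) passed an adjusted p-value of 0.05, 1063 (8.05%) with a higher and 1017 (7.71%) with a lower level in the PARP2 line. An unadjusted p-value below 0.05 was found for 4078 genes. Most differences were small. The median size among called genes was 0.29 on the log2 scale, 540 called genes differed by more than 1.5-fold, and 101 higher and 160 lower genes differed by more than 2-fold. In 2695 genes (20.4%) the 4 libraries of one line did not overlap the 4 of the other, with 1384 (10.5%) higher and 1311 (9.93%) lower in the PARP2 line. Scaled by library size without a composition factor, 27.2% of the calls were higher in the PARP2 line in place of 51.1%, with 682 higher and 1829 lower. Without PARP2CKO replicate 1 the count fell to 1141. The genotype term of the same fit called 0 genes by edgeR's quasi-likelihood test, with 1064 at an unadjusted p-value below 0.05. That term fits a single common effect to both deletions, so a gene changed by either deletion alone is diluted in it. The effect of each deletion by itself is not tested by it. In a principal component analysis the first component held 49.6% of the variance and separated the lines. The PARP1 line libraries lay from -25.7 to -11.3 on it and the PARP2 line libraries from 15.1 to 25.7.

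**Figure D1:**
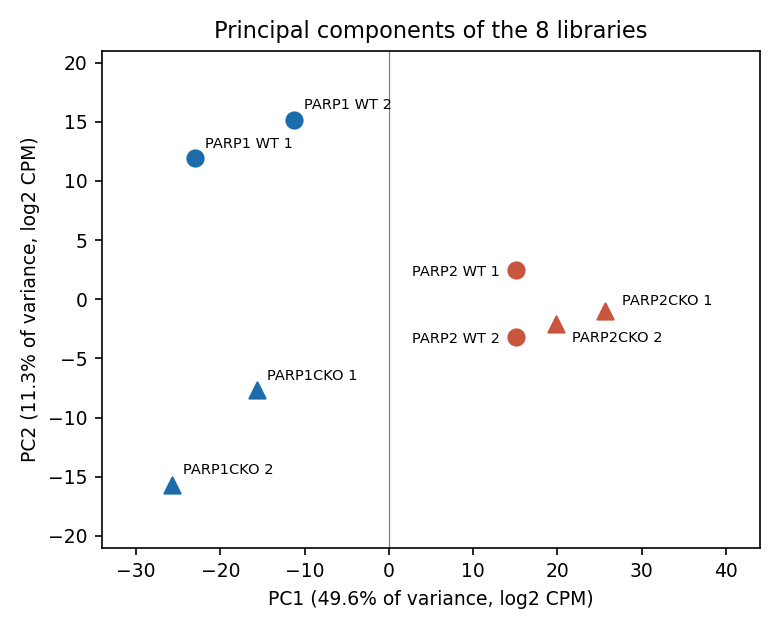
Scores of the 8 libraries on the first 2 principal components of log2 CPM (x axis, PC1 with 49.6% of the variance, and y axis, PC2 with 11.3%). Blue marks the PARP1 line, red the PARP2 line, circles WT and triangles CKO. All PARP1 line libraries lie left of 0 and all PARP2 line libraries right of it.

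The difference was also taken separately in the floxed controls and in the deleted cells. These 2 contrasts share no library. Between PARP2 WT and PARP1 WT 417 genes (3.16%) were called, 254 (1.92%) higher and 163 (1.24%) lower in the PARP2 line. Between PARP2CKO and PARP1CKO 1363 genes (10.3%) were called, 658 (4.99%) higher and 705 (5.34%) lower. Both contrasts called 303 genes, which are 72.7% of the WT calls and 22.2% of the CKO calls, and 302 of them had the same sign. Of the WT calls 95.4% had the same sign in the CKO contrast, and of the CKO calls 93.2% had the same sign in the WT contrast, beside 68.4% over all genes tested. Across genes, which are not independent replicates, Pearson's r between both differences was 0.61 and Spearman's rank correlation 0.52. The test of the difference between the contrasts called 2 genes (0.0152%). They were Parp2, with an adjusted p-value of 0.00634, and the pseudogene Nlrp1c-ps, with 0.0107. At an unadjusted p-value below 0.05 there were 1015, and DESeq2 called 45.

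**Figure D2:**
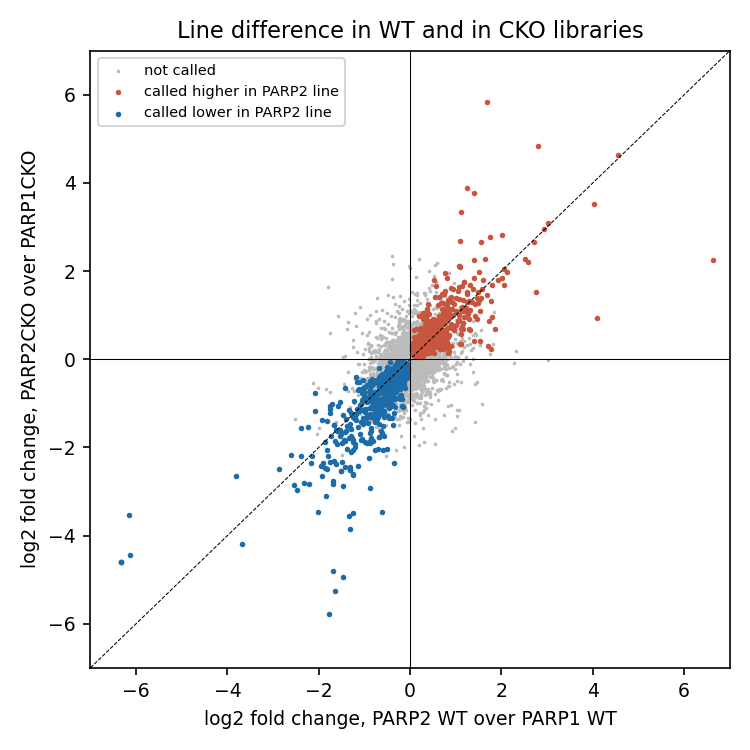
Each point is a gene, with the log2 fold change of PARP2 WT over PARP1 WT on the x axis and of PARP2CKO over PARP1CKO on the y axis. Red and blue mark genes called higher and lower in the PARP2 line in the fit over 8 libraries, and 7 of 13197 genes lie outside the axes. Called genes lie mainly in the upper right and lower left, where both contrasts have the same sign.

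B lineage transcripts were lower in the PARP2 line. Of 12 B cell markers 10 were tested, 8 were called lower (background 7.71%) and 1, Blnk, higher, with a median log2 fold change of -2.01 beside a median near 0 over all genes. Cd79a, a signalling chain of the B cell receptor, was at 9.80, 8.20, 8.84 and 12.8 CPM in the PARP1 line and 2.75, 2.42, 1.94 and 2.86 CPM in the PARP2 line. Every PARP1 line library lay above every PARP2 line library. The level was 3.97-fold lower in the PARP2 line (log2 -1.99 ± 0.16; adjusted p = 0.000137). Ms4a1, which encodes CD20, differed by -1.87 ± 0.17 (adjusted p = 0.000164), and Cd79b by -1.29 ± 0.11 (adjusted p = 0.000164). The transcription factors Pax5 and Ebf1, which set B cell identity, differed by -2.37 ± 0.22 and -2.27 ± 0.27 (adjusted p = 0.000191 and 0.000871). Vpreb3, of B cell precursors, and Igll1, of the pre-B cell receptor, differed by -2.27 ± 0.29 and -2.04 ± 0.53, the latter from at most 14 counts in a library. Blnk, an adaptor that macrophages also express, was higher (85.4, 87.1, 106 and 88.9 CPM against 114, 110.2, 131 and 116 CPM; adjusted p = 0.00318). Cd22, an inhibitory receptor, lay at 8.02 to 11.9 CPM and 7.96 to 10.8 CPM and did not pass (adjusted p = 0.994). Without Blnk the list summed to between 38.5 and 56.8 CPM in the PARP1 line and between 17.7 and 22.2 CPM in the PARP2 line. In bulk RNA fewer cells of a type and less RNA per cell cannot be told apart. In the WT contrast 7 of the markers were called lower (background 1.24%) and in the CKO contrast 7 (background 5.34%), and leaving out any 1 library gave 7 or 8 lower calls.

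The 15 genes with the largest fold below the PARP1 line held 4 members of this list, among them Pax5, Ebf1 and Cd79a, and further genes known from B lymphocytes. Rag1, which cuts immunoglobulin genes in developing lymphocytes, was at 2.51, 1.81, 2.08 and 3.80 CPM in the PARP1 line and 0.173, 0.154, 0.117 and 0.207 CPM in the PARP2 line. It was the gene with the largest fold among the 15 (15.4-fold lower; log2 -3.95 ± 0.29; adjusted p = 7.36e-05). It lies on chromosome 2 from 101638282 to 101649501 of mm10. Ikzf3, a lymphoid zinc finger factor, differed by -2.17 ± 0.22, Blk, a B cell kinase of the Src family, by -2.03 ± 0.24, and Fcrla, an Fc receptor-like protein of B cells, by -2 ± 0.24 (adjusted p = 0.000346, 0.000750 and 0.000785). The groups did not overlap for any of them, which was a condition for naming them.

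Basophil and mast cell transcripts were lower in the PARP2 line as well. All 8 tested markers of 11 listed were called lower (background 7.71%), with a median of -0.84. In the WT contrast 1 of them was called lower (background 1.24%) and in the CKO contrast 6 (background 5.34%). Cpa3, the mast cell carboxypeptidase, was at 4.81, 4.19, 2.85 and 4.31 CPM in the PARP1 line and 2.14, 2.46, 1.34 and 1.95 CPM in the PARP2 line (log2 -1.04 ± 0.16; adjusted p = 0.00286). Mcpt8 and Prss34, proteases of basophils, differed by -0.83 ± 0.15 and -0.82 ± 0.14 (adjusted p = 0.00627 and 0.00524). Kit, the receptor for stem cell factor, was at 30.8, 28.8, 31.7 and 28.1 CPM and 18.4, 18.2, 16.5 and 14.4 CPM, with no overlap (1.77-fold lower; adjusted p = 0.000140). The IgE receptor chains Fcer1a and Ms4a2 differed by -1.49 ± 0.26 and -0.85 ± 0.19, and Gata2 by -0.51 ± 0.13. Hdc, which makes histamine, was at 7.99, 8.77, 8.60 and 11.1 CPM in the PARP1 line and 5.53, 0.980, 0.805 and 0.870 CPM in the PARP2 line. PARP2 WT replicate 1 was well above the other PARP2 line libraries, and the call (adjusted p = 0.0158) was lost without either PARP2CKO library (highest adjusted p = 0.0583). The summed level of the list was 55.1 to 60.2 CPM in the PARP1 line and 25.4 to 35.1 CPM in the PARP2 line, and between 5 and 8 markers were called when 1 library was left out, the lowest without PARP2CKO replicate 1.

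Red cell transcripts were few and lower in the PARP2 line. The alpha globin genes Hba-a1 and Hba-a2 have identical counts in every library and stand for a single measurement. With the pair counted once, 7 erythroid markers were tested and 4 called lower (background 7.71%), with a median of -1.20. Alpha globin was at 1.99, 1.77, 3.11 and 3.83 CPM in the PARP1 line and 0.813, 0.692, 0.570 and 0.642 CPM in the PARP2 line (log2 -1.93 ± 0.23; adjusted p = 0.000864). Hbb-bs and Hbb-bt, the adult beta globins, differed by -1.20 ± 0.24 and -1.99 ± 0.40, and Slc4a1, the red cell anion exchanger, by -2.79 ± 0.56. Hbb-bt had at most 16 and Slc4a1 at most 28 counts in a library, so their folds are uncertain. Gata1, which megakaryocytes and mast cells also use, had a log2 fold change of -0.10 (adjusted p = 0.733). With the pair counted once, the list summed to 9.59 to 14.5 CPM in the PARP1 line and 6.82 to 9.80 CPM in the PARP2 line. With both alpha globin genes counted, 2 markers were lower in the WT contrast (background 1.24%) and 5 in the CKO contrast (background 5.34%). Counted likewise, a filter of at least 1 CPM in 2 libraries left 5 tested and 3 lower.

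Markers of other lineages were counted in the same way, beside 8.05% called higher and 7.71% called lower over all genes tested. Of 5 tested T and NK cell markers 0 were called by edgeR's quasi-likelihood test in the additive fit, 2 had an unadjusted p-value below 0.05, and at most 1 was called under any other setting of that fit. In the CKO contrast 1 was higher (background 4.99%) and 1 lower (background 5.34%). Of the 5 markers, Cd8a had the lowest log2 fold change in the additive fit, -0.73 (adjusted p = 0.171). Of 8 megakaryocyte markers 1 was called, Vwf (-0.27 ± 0.07), and 0 without PARP1 WT replicate 1, PARP1CKO replicate 2 or PARP2CKO replicate 2, while 2 were called by DESeq2. Of 6 eosinophil markers 1 was called lower, Il5ra (-1.62 ± 0.31), and the count was 3 without PARP2 WT replicate 1 or with the likelihood-ratio test and 2 without PARP1 WT replicate 2. With a filter of at least 1 CPM in 2 libraries, 4 were tested and 0 called. Among 8 dendritic cell markers Cd209a (-0.99 ± 0.16) and Ccr7 (-1.37 ± 0.23), the chemokine receptor of migrating dendritic cells, were lower and Itgax (0.57 ± 0.12), which encodes CD11c, was higher. The lower count was 4 without PARP2 WT replicate 1 or without a filter on low counts, and 3 without PARP1CKO replicate 1 or PARP2CKO replicate 2. Of 10 progenitor genes 3 were lower, Kit, Gata2 and Sox4 (-0.48 ± 0.11), and 1 without PARP2CKO replicate 1. Of 10 stromal and endothelial markers 0 were called by edgeR's quasi-likelihood test, 1 had an unadjusted p-value below 0.05, and at most 1 was called under any other setting. B cell, mast cell and erythroid markers moved with the line, and their part in any other difference given below was not tested.

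**Figure D3:**
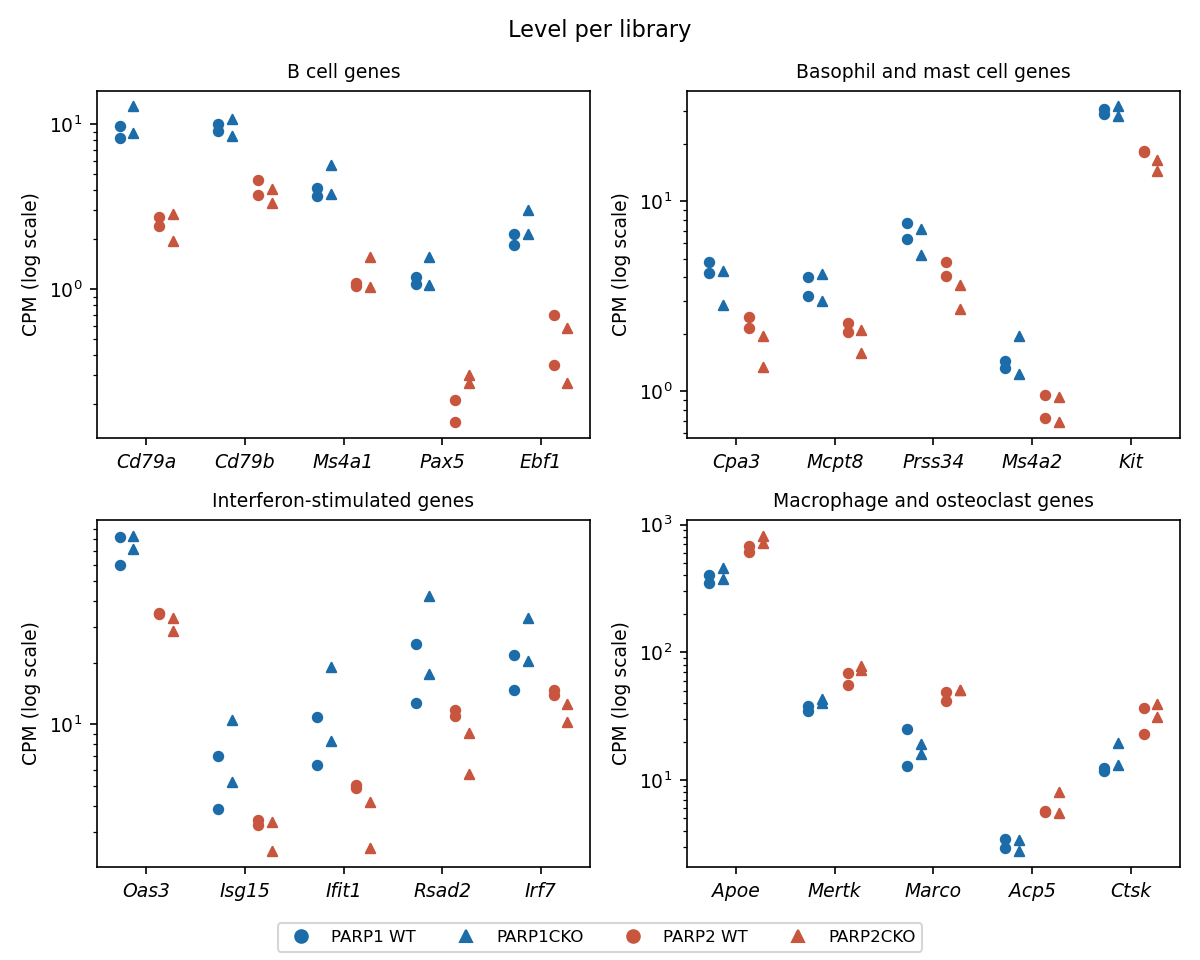
Level of 5 genes in each of 4 lists, with CPM on a log axis and 1 point per library. Blue marks the PARP1 line, red the PARP2 line, circles WT and triangles CKO. B cell, basophil and mast cell genes lie lower in the PARP2 line, interferon-stimulated genes are widely spread in the PARP1 line, and the macrophage and osteoclast genes shown lie higher in the PARP2 line.

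Interferon-stimulated genes form a program that cells turn on through factors that include STAT2 and IRF9, which bind a short element in their promoters. The program was lower in the PARP2 line. All 27 listed genes were tested, 22 were called lower (background 7.71%) and none higher (background 8.05%), with a median of -0.94. The promoters of 4 called genes are shown, since letters of this element can be found in them. The sequences are RefSeq windows on GRCm38.p6 from 250 bases before to 50 bases after the start, printed along the gene's strand, with matches to GAAA, any 2 bases and GAAA again on either strand in capitals. The window of Oas3 is chr5:120777610-120777909 (minus strand), that of Isg15 chr4:156200769-156201068 (minus strand), that of Ifit1 chr19:34640639-34640938 (plus strand) and that of Rsad2 chr12:26456403-26456702 (minus strand).
Oas3: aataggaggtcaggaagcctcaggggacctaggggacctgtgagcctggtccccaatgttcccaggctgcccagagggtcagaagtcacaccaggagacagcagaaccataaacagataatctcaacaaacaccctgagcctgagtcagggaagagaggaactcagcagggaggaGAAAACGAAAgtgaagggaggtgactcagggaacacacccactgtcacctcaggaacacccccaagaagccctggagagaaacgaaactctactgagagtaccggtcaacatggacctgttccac
Isg15: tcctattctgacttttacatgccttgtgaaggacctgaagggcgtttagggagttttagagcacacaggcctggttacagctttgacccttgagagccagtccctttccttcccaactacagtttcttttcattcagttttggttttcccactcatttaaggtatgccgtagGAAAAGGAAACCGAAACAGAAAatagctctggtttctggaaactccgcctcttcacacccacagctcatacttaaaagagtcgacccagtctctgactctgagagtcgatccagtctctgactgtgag
Ifit1: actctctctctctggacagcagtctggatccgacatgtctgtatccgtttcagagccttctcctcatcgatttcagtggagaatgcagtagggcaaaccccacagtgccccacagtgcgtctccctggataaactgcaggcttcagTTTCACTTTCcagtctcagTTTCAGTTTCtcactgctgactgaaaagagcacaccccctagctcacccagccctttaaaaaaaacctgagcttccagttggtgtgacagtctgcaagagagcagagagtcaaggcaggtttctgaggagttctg
Rsad2: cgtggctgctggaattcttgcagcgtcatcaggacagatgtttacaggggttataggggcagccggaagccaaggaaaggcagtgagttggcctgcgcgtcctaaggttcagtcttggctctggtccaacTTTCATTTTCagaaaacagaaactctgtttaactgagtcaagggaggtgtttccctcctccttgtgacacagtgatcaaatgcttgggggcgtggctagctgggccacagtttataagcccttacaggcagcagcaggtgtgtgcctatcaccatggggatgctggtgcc

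Isg15 holds 3 overlapping matches, Ifit1 2, and Oas3 and Rsad2 1 each. Of 20 listed genes with a window 12 held a match (60%), beside 375 of 9800 tested genes (3.83%) and 1131 of 32851 windows of the same length (3.44%). A match describes the letters and shows no binding.

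Oas3, an enzyme that senses viral RNA, was at 81.6, 59.9, 71.5 and 83.3 CPM in the PARP1 line and 34.5, 34.9, 28.5 and 33.1 CPM in the PARP2 line. The groups did not overlap, and the level was 2.26-fold lower (log2 -1.18 ± 0.10; adjusted p = 0.000164). Its relatives Oas2 and Oas1a differed by -1.10 ± 0.14 and -0.68 ± 0.09 (adjusted p = 0.000998 and 0.00129). Isg15, a ubiquitin-like modifier, was at 6.98, 3.87, 5.23 and 10.5 CPM and 3.41, 3.23, 2.40 and 3.33 CPM (log2 -1.08 ± 0.27; adjusted p = 0.0246). Ifit1, which binds viral RNA ends, was at 10.9, 6.35, 8.25 and 19.1 CPM and 5.08, 4.88, 2.48 and 4.16 CPM (log2 -1.41 ± 0.34; adjusted p = 0.0222). Rsad2, which encodes viperin, was at 24.7, 12.7, 17.5 and 42.4 CPM and 11, 11.7, 5.75 and 9.05 CPM (log2 -1.36 ± 0.36; adjusted p = 0.0314). The PARP1 line libraries spanned a wider range than those of the PARP2 line. PARP1CKO replicate 2 and PARP1 WT replicate 1 were the highest for Oas3, Isg15, Ifit1 and Rsad2. PARP1 WT replicate 2 came close to the PARP2 WT libraries for Isg15, Ifit1 and Rsad2, and not for Oas3. The lowest PARP1 line value was 40.29 CPM for Oas2 and 28.1 CPM for Oas1a. The highest PARP2 line values were 26.35 and 21.72 CPM.

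Regulators of the response were called as well. Irf7, the amplifying factor of the response, differed by -0.78 ± 0.21 and Stat2 by -0.36 ± 0.10 (adjusted p = 0.0334 and 0.0389). Usp18, which removes Isg15 from proteins, differed by -1.16 ± 0.27, and the RNA sensors Ddx58 and Ifih1 by -0.66 ± 0.14 and -0.39 ± 0.10. The 5 members that did not pass were Ifit2, Mx1, Mx2, Cxcl10 and Bst2, which had log2 fold changes of -0.66, -0.87, -1.01, -0.68 and -0.18. The summed level was 549 to 910.0 CPM in the PARP1 line and 386 to 481 CPM in the PARP2 line. In the CKO contrast 22 members were called lower (background 5.34%) with a median of -1.34, and in the WT contrast 3 (background 1.24%) with a median of -0.51. The difference between the contrasts was called for none of these genes by edgeR's quasi-likelihood test, with 9 at an unadjusted p-value below 0.05. Without PARP1 WT replicate 1 the number called lower fell from 22 to 8, without PARP2CKO replicate 1 it was also 8, and without PARP2CKO replicate 2 it was 9, while the median stayed between -1.15 and -0.61 whichever library was left out. Among antigen presentation genes, B2m, the light chain of MHC class I, was lower in the PARP2 line (1224 to 1318 CPM against 877 to 992 CPM; log2 -0.45 ± 0.04; adjusted p = 0.000259), as was the class I regulator Nlrc5 (-0.37 ± 0.09), 2 of 14 genes in that list and 1 without PARP1 WT replicate 1, PARP2 WT replicate 1 or either PARP2CKO library. The count was 5 without PARP1 WT replicate 2, with DESeq2 and with the likelihood-ratio test, and 4 without PARP1CKO replicate 1. Of 10 MHC class II and costimulation genes 1 was called, Cd80 (-0.19 ± 0.05), and 0 with the replicate block or without any 1 of the WT or PARP2CKO libraries. For both lists the background of lower calls was 7.71%.

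Macrophage genes were higher in the PARP2 line where they differed. Of 14 tested markers 8 were called higher (background 8.05%) and none lower (background 7.71%), with a median of 0.23. Apoe, the lipid carrier, was at 349, 406, 376 and 457 CPM in the PARP1 line and 609.7, 685, 819.6 and 716 CPM in the PARP2 line, 1.78-fold higher with no overlap (log2 0.83 ± 0.08; adjusted p = 0.000203). Mertk, a receptor for dying cells, was at 35, 37.9, 40.1 and 43.2 CPM and 55.3, 68.4, 77.7 and 73 CPM (log2 0.81 ± 0.06; adjusted p = 0.000124). Marco, a scavenger receptor, was at 12.8, 25.3, 19.1 and 16 CPM and 41.8, 49.3, 50.8 and 50.9 CPM, 2.61-fold higher (adjusted p = 0.000855). Fcgr1, C1qb, C1qc, Mrc1 and Gpnmb were higher by between 0.16 and 0.32 on the log2 scale. The broad markers Csf1r, Cd68 and Emr1 had log2 fold changes of 0.04, 0.10 and 0.07 and did not pass. The count was 3 without PARP2CKO replicate 1, 4 without PARP1 WT replicate 1 and 5 under library size scaling alone.

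Granulocyte genes differed in both directions. All 5 primary granule genes, which promyelocytes express, were higher in the PARP2 line (background 8.05%), with a median of 0.45. Mpo, the granule peroxidase, was at 172, 199, 166 and 185 CPM in the PARP1 line and 255, 217, 253 and 264 CPM in the PARP2 line (log2 0.45 ± 0.07; adjusted p = 0.00338). Elane, Prtn3, Ctsg and Ms4a3 differed by 0.39 ± 0.05, 0.47 ± 0.07, 0.27 ± 0.07 and 0.47 ± 0.10. Among 13 later markers 3 were lower (background 7.71%) and 2 higher (background 8.05%). Retnlg, of mature neutrophils, was at 20, 19.4, 17.5 and 18.2 CPM and 9.84, 13, 7.59 and 7.27 CPM, 2.02-fold lower (adjusted p = 0.000410). Mmp9, the gelatinase, differed by -0.89 ± 0.11 and Cxcr2, the neutrophil chemokine receptor, by -0.73 ± 0.13 (adjusted p = 0.000871 and 0.00663), while Chil3 (0.49 ± 0.08) and Cebpe (0.23 ± 0.07) were higher. The higher count was 1 without any 1 of 5 libraries, both PARP1 WT libraries, PARP1CKO replicate 1, PARP2 WT replicate 1 and PARP2CKO replicate 1. Of the monocyte markers F13a1 (0.63 ± 0.10) and Ms4a6c (0.33 ± 0.06) were higher.

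Osteoclasts arise from such cells after RANKL, which these cultures had not received. Of 10 tested osteoclast genes 3 were higher (background 8.05%) and 1, Mmp9, lower (background 7.71%), and the same counts were found without any 1 library. Ctsk, the collagen-degrading cathepsin, was at 11.7, 12.4, 19.4 and 13.1 CPM in the PARP1 line and 36.9, 22.8, 39.4 and 31.3 CPM in the PARP2 line, 2.31-fold higher (log2 1.21 ± 0.16; adjusted p = 0.00145). Acp5, which encodes tartrate-resistant acid phosphatase, was at 2.95, 3.43, 2.76 and 3.41 CPM and 5.72, 5.63, 8.06 and 5.55 CPM (1.99-fold; adjusted p = 0.00172). Atp6v0d2, a proton pump subunit, was at 67.2, 64.8, 57 and 55.9 CPM and 106, 127, 146 and 142 CPM (2.13-fold; adjusted p = 0.000186). In all 3 the lines did not overlap. Tnfrsf11a, the RANKL receptor, and Nfatc1, the main osteoclast factor, had log2 fold changes of 0.10 and -0.08 and did not pass (adjusted p = 0.127 and 0.123).

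Lysosome and iron genes, both prominent in macrophages, were mostly higher in the PARP2 line where called, by small amounts. Of 21 lysosomal genes 9 were called higher (background 8.05%) and none lower (background 7.71%). Ctsl, a cathepsin, was at 589 to 754 CPM in the PARP1 line and 872 to 1267 CPM in the PARP2 line (log2 0.58 ± 0.10; adjusted p = 0.00620), and Ctsh (0.47 ± 0.07) and the lysosomal regulator Tfeb (0.22 ± 0.05) were among the others. The count was 6 under library size scaling alone, with 1 lower, and between 4 and 8 when 1 library was left out, the lowest without PARP2CKO replicate 1. Of 14 tested iron and heme genes 7 were higher and 1 lower, against the same backgrounds. The higher count was 4 without PARP2 WT replicate 2, without PARP2CKO replicate 1 and with no genotype term, and 5 under library size scaling alone. Tfrc, the transferrin receptor that brings iron in, was at 379, 386, 462 and 483 CPM and 530.4, 498, 672 and 595 CPM (log2 0.43 ± 0.04; adjusted p = 0.000297). Hmox1, which breaks down heme, was 1.45-fold higher (adjusted p = 0.00396), whereas Slc40a1, the iron exporter ferroportin, was at 418, 369, 407 and 391 CPM and 284, 288, 252 and 306 CPM and lower (log2 -0.49 ± 0.06; adjusted p = 0.000916). The lines did not overlap for these 3 genes. Of 22 nuclear-encoded oxidative phosphorylation genes 6 were higher, by at most 0.25 in Cox5a, and 2 under library size scaling alone. Leaving out any 1 library other than PARP1 WT replicate 1 gave 2 or 3.

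Amino acid stress genes under the factor ATF4 were lower in the PARP2 line. Of 17 genes 10 were called lower (background 7.71%) and none higher (background 8.05%), with a median of -0.35. Trib3, a pseudokinase of this response, was at 24.7, 17.5, 21.5 and 29.4 CPM in the PARP1 line and 12.9, 15.4, 8.85 and 12.3 CPM in the PARP2 line (log2 -0.92 ± 0.18; adjusted p = 0.00954). Asns, asparagine synthetase, was at 128, 107, 107 and 121 CPM and 86.2, 101, 69.8 and 80.3 CPM (log2 -0.47 ± 0.09; adjusted p = 0.00782), and Sesn2 and Atf4 itself differed by -0.33 ± 0.05 and -0.13 ± 0.03. The PARP2CKO libraries were the lowest for Trib3 and Asns. In the CKO contrast 12 members were called lower (background 5.34%) and in the WT contrast none (background 1.24%), with 4 at an unadjusted p-value below 0.05. The difference between the contrasts was called for none by edgeR's quasi-likelihood test, with 8 at an unadjusted p-value below 0.05. Between 3 and 14 members were called when 1 library was left out, 3 without PARP1 WT replicate 1 or PARP2CKO replicate 1, 5 without PARP1CKO replicate 2 or PARP2CKO replicate 2, and 6 without PARP2 WT replicate 1. Cell cycle genes differed by little. Of 20 mitosis genes 7 were lower, led by Bub1b (-0.25 ± 0.04) and Cenpf (-0.23 ± 0.03), and of 23 replication genes 2, Rrm1 (-0.10 ± 0.03) and Ccne2 (-0.18 ± 0.05), beside 7.71% called lower over all genes. These 2 counts were 13 and 10 under library size scaling alone, and the mitosis count was 2 without PARP2 WT replicate 1 or with no genotype term and 3 to 5 without any 1 of the other libraries. The replication count was 0 or 1 without any 1 library except PARP2CKO replicate 2.

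**Figure D4:**
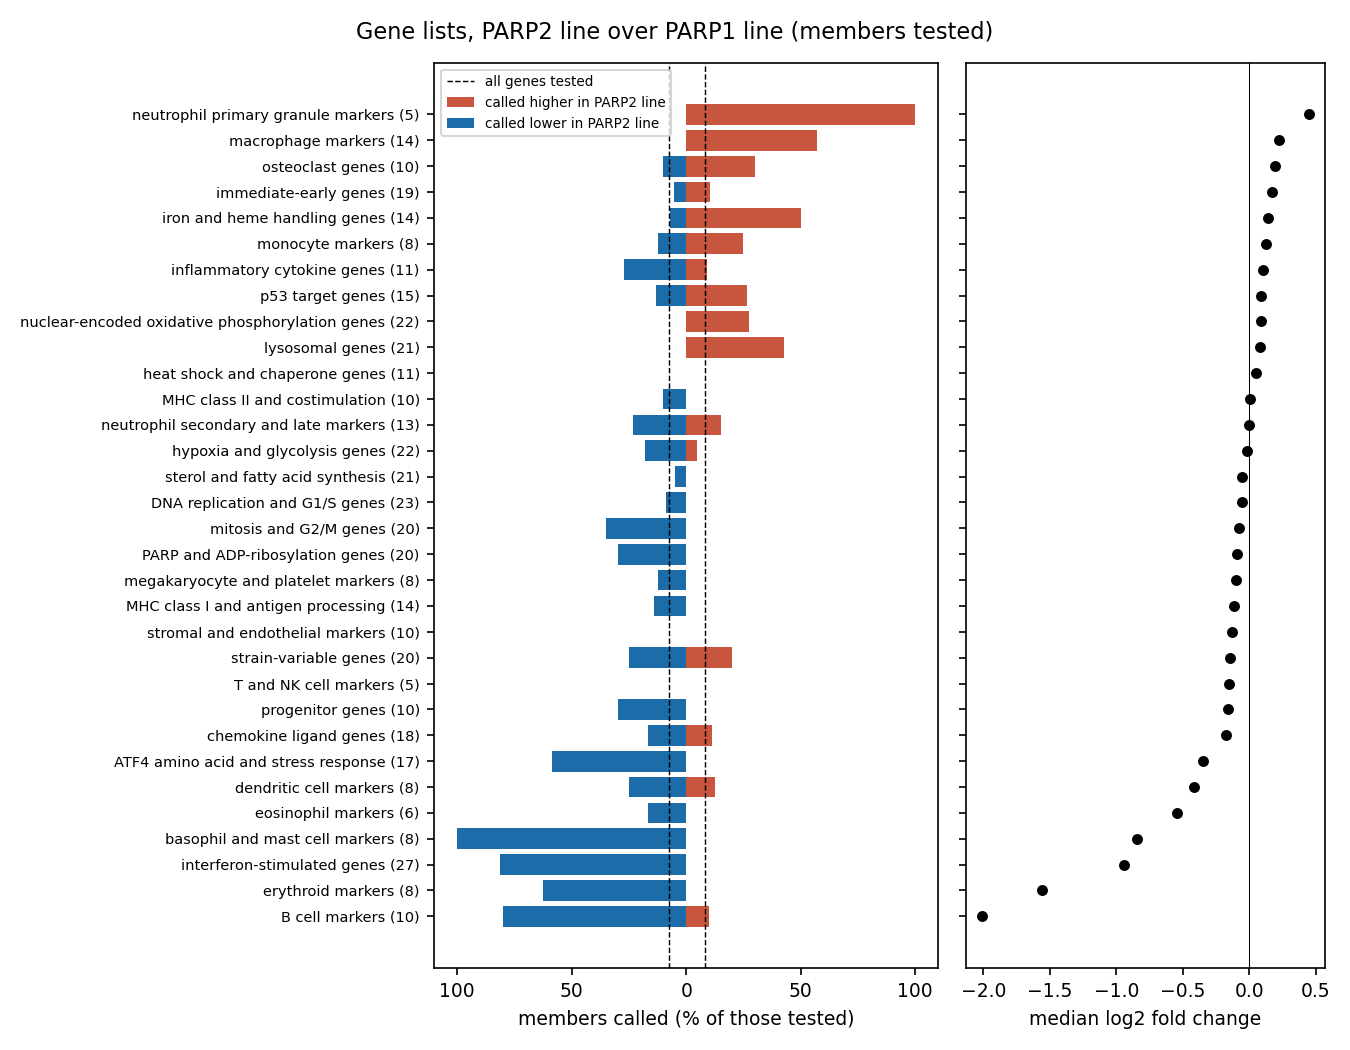
Left, share of the tested members of each list called higher (red, to the right) and lower (blue, to the left) in the PARP2 line, in percent, with dashed lines at the shares over all genes tested (8.05% and 7.71%). Right, median log2 fold change of each list. The erythroid list is drawn with both alpha globin genes. B cell, erythroid, interferon-stimulated and basophil and mast cell lists have the lowest medians, from -2.01 to -0.84, and primary granule genes the highest, 0.45.

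Secreted signals differed for single genes. Of 11 tested cytokine genes 3 were lower (background 7.71%) and 1 higher (background 8.05%) in the PARP2 line, or 2 higher without PARP1CKO replicate 1. Csf1, the gene for M-CSF itself, was at 33.7, 19.4, 19.4 and 30.2 CPM in the PARP1 line and 11.6, 14.6, 8.47 and 10 CPM in the PARP2 line, 2.32-fold lower (adjusted p = 0.00395). Il1b was lower (-0.80 ± 0.17; adjusted p = 0.0114) and Il1a, which encodes the other interleukin 1, higher (1.01, 0.705, 0.634 and 0.818 CPM against 2.01, 1.23, 2.53 and 1.82 CPM; 1.27 ± 0.23; adjusted p = 0.00691). Of 18 tested chemokines Ccl6, Ccl9 and Ccl24 were lower (background 7.71%) and Cxcl14 and Cxcl16 higher (background 8.05%). The lower count was 0 without PARP1CKO replicate 2 and 5 without PARP1 WT replicate 2 or PARP2 WT replicate 2. It was 1 without any 1 of the other libraries and with no genotype term, and the higher count was 1 without either PARP2CKO library. In the WT contrast 0 chemokines were called in either direction by edgeR's quasi-likelihood test. In the CKO contrast 5 were lower (background 5.34%) and 2 higher (background 4.99%). Ccl6 was at 104, 95.9, 93.3 and 128 CPM and 54.1, 104, 22.5 and 20.5 CPM, and Ccl9 at 529.7, 531, 507 and 482 CPM and 392, 554, 234 and 236 CPM. In both, PARP2 WT replicate 2 lay within or above the PARP1 line and the PARP2CKO libraries lay lowest. The paper reports that PARP2 deficiency lowered Ccl6 and Ccl9, among other chemokines, and that PARP1 deficiency did not affect them. Cxcl14 was at 0.569, 0.605, 0.535 and 0.509 CPM and 1.05, 1.15, 1.68 and 1.55 CPM, with no overlap (2.43-fold higher; adjusted p = 0.00172).

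Among 20 genes of ADP-ribosylation 6 were lower in the PARP2 line (background 7.71%) and none higher (background 8.05%). Parp14, a mono-ADP-ribosyltransferase that interferon induces, was at 127, 105, 119 and 164 CPM in the PARP1 line and 91.7, 96, 78.2 and 91.9 CPM in the PARP2 line (log2 -0.52 ± 0.12; adjusted p = 0.0168). Parp9 and Parp12, which interferon also induces, differed by -0.36 ± 0.08 and -0.28 ± 0.07, and Parp4, Parp8 and Parp11 by -0.14 ± 0.04, -0.19 ± 0.06 and -0.19 ± 0.05. The count was 1 without PARP2CKO replicate 1, 2 without PARP1 WT replicate 1, PARP1CKO replicate 2 or PARP2CKO replicate 2, and 3 without PARP1CKO replicate 1. In the WT contrast 0 were lower (background 1.24%) and 1 higher (background 1.92%). In the CKO contrast 5 were lower (background 5.34%) and 1 higher (background 4.99%).

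The 15 genes with the largest fold above the PARP1 line came from many functions. Fbn1, the matrix protein fibrillin, was at 0.439, 0.302, 0.238 and 0.730 CPM in the PARP1 line and 2.61, 3.34, 4.74 and 3.35 CPM in the PARP2 line (log2 3.06 ± 0.27; adjusted p = 0.000164). Mybpc3, a muscle thick filament protein, was at 1.01, 0.867, 1.25 and 1.22 CPM and 4.13, 8.07, 7.78 and 7.91 CPM (6.42-fold; adjusted p = 8.77e-05). Cspg4, the proteoglycan NG2, was at 3.05, 4.55, 2.52 and 1.99 CPM and 16.2, 9.78, 21 and 10 CPM (4.74-fold; adjusted p = 0.00159). The lines did not overlap in these genes, and PARP2 WT replicate 1 was the lowest of its line for Fbn1 and Mybpc3. Map1a, Gchfr, Gm14085, Gm5150, Cdo1 and Dppa3 were higher by between 2.06 and 2.44 on the log2 scale. Gt(ROSA)26Sor, the locus widely used to insert transgenes, was at 0.439, 3.02, 0.0595 and 0.133 CPM and 5.65, 5.98, 4.71 and 6.42 CPM (log2 2.78 ± 0.63; adjusted p = 0.0165). PARP1 WT replicate 2 stood above the other PARP1 line libraries there. When 1 library was left out the log2 fold change lay between 2.36 and 4.81. Rmrp, a short RNA of mitochondrial RNA processing, was at 0.0517, 0.0403, 0.0397 and 0.0885 CPM and 8.63, 0.730, 0.469 and 0.124 CPM. PARP2 WT replicate 1 stood far above the other PARP2 line libraries. The fitted log2 fold change lay between 3.095 and 6.054 when 1 library was left out. The call was lost without either PARP1 WT library (highest adjusted p = 0.0785), with voom and in the fit with a mean per group. Sirpb1a (2.37 ± 0.64; adjusted p = 0.0330) lost its call without any 1 of 5 libraries, among them PARP2CKO replicate 1, the library with its highest level. Its call was also lost with the replicate block (adjusted p = 0.0511), and its log2 fold change lay between 1.448 and 3.219 when 1 library was left out. Sirpb1a and Gm5150 are members of a family of near copies that may share reads.

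Below the PARP1 line, apart from the lymphoid genes, stood Rasd2, a small GTPase, at 1.52, 0.967, 0.615 and 1.04 CPM against 0.225, 0.192, 0.101 and 0.124 CPM (log2 -2.67 ± 0.28; adjusted p = 0.000382), and Cecr2, a bromodomain protein, at 3.13, 1.27, 2.44 and 4.60 CPM against 0.726, 0.327, 0.302 and 0.331 CPM (log2 -2.70 ± 0.42; adjusted p = 0.00321). Spint1, a protease inhibitor, was at 5.04, 5.38, 4.00 and 5.91 CPM and 2.97, 0.173, 0.184 and 0.166 CPM. PARP2 WT replicate 1 was near the PARP1 line and the other PARP2 line libraries were far below, and the call (adjusted p = 0.0233) was lost without either PARP2CKO library. Camk2b, Ccdc149 and Cd209c were lower by 4.71-, 4.48- and 4.43-fold.

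Differences were also found in abundant genes. Cd36, a fatty acid receptor, was at 1603, 1612, 1271 and 1133 CPM in the PARP1 line and 2184, 2002, 2309 and 2539.6 CPM in the PARP2 line (1.62-fold; adjusted p = 0.00392). Lpl, lipoprotein lipase, was at 2980.5, 3168, 3687 and 2719 CPM and 4295, 3818, 4608 and 4993 CPM (1.41-fold; adjusted p = 0.00668). Fabp4, a fatty acid carrier, was at 36.3, 31.7, 41 and 34.4 CPM and 82.2, 76.2, 85.9 and 83.6 CPM (2.29-fold; log2 1.19 ± 0.06; adjusted p = 9.22e-06). In these 3 genes the lines did not overlap. Of 21 tested sterol and fatty acid synthesis genes, a list that holds none of them, 0 were called higher (background 8.05%) and 1 lower (background 7.71%), or 3 lower without PARP1 WT replicate 2. Fabp4 was picked after the values were seen for its small adjusted p-value, as were 3 other genes. Wdfy4, a protein of antigen cross-presentation whose gene lies 17.9 Mb from Parp2, was at 293, 277, 262 and 277 CPM and 160.0, 159, 151 and 150.2 CPM (log2 -0.84 ± 0.03; adjusted p = 1.73e-06). P2ry1, an ADP receptor, was at 20, 22.5, 20.6 and 21.1 CPM and 42.3, 39.9, 41.2 and 42.8 CPM (0.98 ± 0.04; adjusted p = 5.11e-06), and Il2rg, the shared chain of several cytokine receptors, at 100.2, 96.1, 89.4 and 87 CPM and 69.5, 69.1, 59.9 and 62 CPM (-0.52 ± 0.03; adjusted p = 1.42e-05). Mpeg1, Adam8, Vim, Tmsb4x, Calr, Eef1a1 and Ctsd were higher by between 0.15 and 0.34 on the log2 scale. The calls for Vim, Calr and Eef1a1 were lost when certain single libraries were left out. The call for Ctsd was lost without any 1 library except PARP2CKO replicate 2. It was also lost under library size scaling alone and with no genotype term.

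Calls were more frequent near both floxed genes. Within 10 Mb of Parp2, on chromosome 14, 44 of 154 tested genes were called (28.6%), and within 10 Mb of Parp1, on chromosome 1, 36 of 132 (27.3%), beside 1991 of 12847 elsewhere (15.5%). Differences over 2-fold were found in 7 and 6 of these genes and in 244 elsewhere (1.90%). The shares were 39.4% within 2.5 Mb of Parp2, 25.8% from 2.5 to 5 Mb, 25.5% from 5 to 10 Mb, 19.1% from 10 to 20 Mb and 9.17% from 20 to 40 Mb. Around Parp1 the shares over the same distances were 30.6%, 17.4%, 28.8%, 19.3% and 21.1%. These shares are a description, since neighbouring genes are not independent.

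Beside Parp2 the members of a ribonuclease cluster differed in opposite directions. Rnase2a, a ribonuclease of eosinophils, lies on chromosome 14 from 51255262 to 51256112, 0.447 Mb from the start of Parp2. It was at 0.0775, 0.0806, 0.0595 and 0.111 CPM in the PARP1 line and 1.83, 1.98, 1.98 and 2.34 CPM in the PARP2 line (log2 4.60 ± 0.21; adjusted p = 5.11e-06). The PARP1 line libraries held 3, 4, 3 and 5 counts and the PARP2 line libraries 106, 103, 118 and 113 counts. Ang, angiogenin, was at 10.4, 10, 12.1 and 13.8 CPM and 3.22, 3.92, 4.01 and 3.91 CPM, 3.06-fold lower (adjusted p = 9.95e-06), and Rnase6 at 18.6, 14.6, 13.9 and 16.6 CPM and 7.61, 6.69, 5.87 and 6.67 CPM, 2.37-fold lower (adjusted p = 8.77e-05). No line overlapped the other in these 3 genes, and near copies in the cluster may share reads. Pnp, a purine salvage enzyme, and Apex1, a DNA repair nuclease, were lower by 1.44- and 1.20-fold, and the nearer genes Osgep and Ttc5 by 1.19- and 1.14-fold. Ccnb1ip1, whose end adjoins the start of Parp2, had 0, 0, 0 and 1 counts in the PARP1 line and 41, 29, 88 and 4 counts in the PARP2 line. It was low everywhere, and no fold is given for a line at 1 count in all. Mettl17, at 11.3, 11.2, 11.3 and 11.5 CPM and 19.5, 18.8, 20.5 and 20.3 CPM, was 1.74-fold higher (adjusted p = 1.05e-05), and Slc39a2, a zinc transporter gene that overlaps its end, 3.59-fold higher. Arhgef40, a gene 1.18 Mb away, was at 0.491, 0.806, 0.634 and 0.796 CPM and 3.15, 2.65, 3.32 and 2.30 CPM (adjusted p = 0.000181). Farther off, 16.4 Mb before Parp2, Sncg, gamma-synuclein, was at 0.0517, 0.121, 0.139 and 0.133 CPM and 1.66, 1.36, 1.69 and 1.45 CPM (log2 3.74 ± 0.23; adjusted p = 2.44e-05).

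Beside Parp1, Ephx1, an epoxide hydrolase 0.407 Mb away on chromosome 1 from 180976210 to 181020904, was at 7.47, 7.54, 8.37 and 9.07 CPM in the PARP1 line and 15.9, 15.2, 16.1 and 15.6 CPM in the PARP2 line, 1.94-fold higher with no overlap (adjusted p = 2.44e-05). Srp9, of the signal recognition particle, was at 73, 71.8, 72.6 and 74 CPM and 44, 61, 42.4 and 44.7 CPM (log2 -0.61 ± 0.09; adjusted p = 0.00270). PARP2 WT replicate 2 lay between the lines. Tmem63a, Fbxo28 and Sde2 were higher by 0.46 ± 0.05, 0.36 ± 0.05 and 0.19 ± 0.04, and Nvl and Lbr differed by -0.33 ± 0.04 and -0.25 ± 0.05. Lefty1 had at most 18 counts in any library, and Enah overlapped between lines. Both lost their calls without any of several single libraries (highest adjusted p = 0.141 and 0.101) and with the replicate block (adjusted p = 0.0619 and 0.0623).

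**Figure D5:**
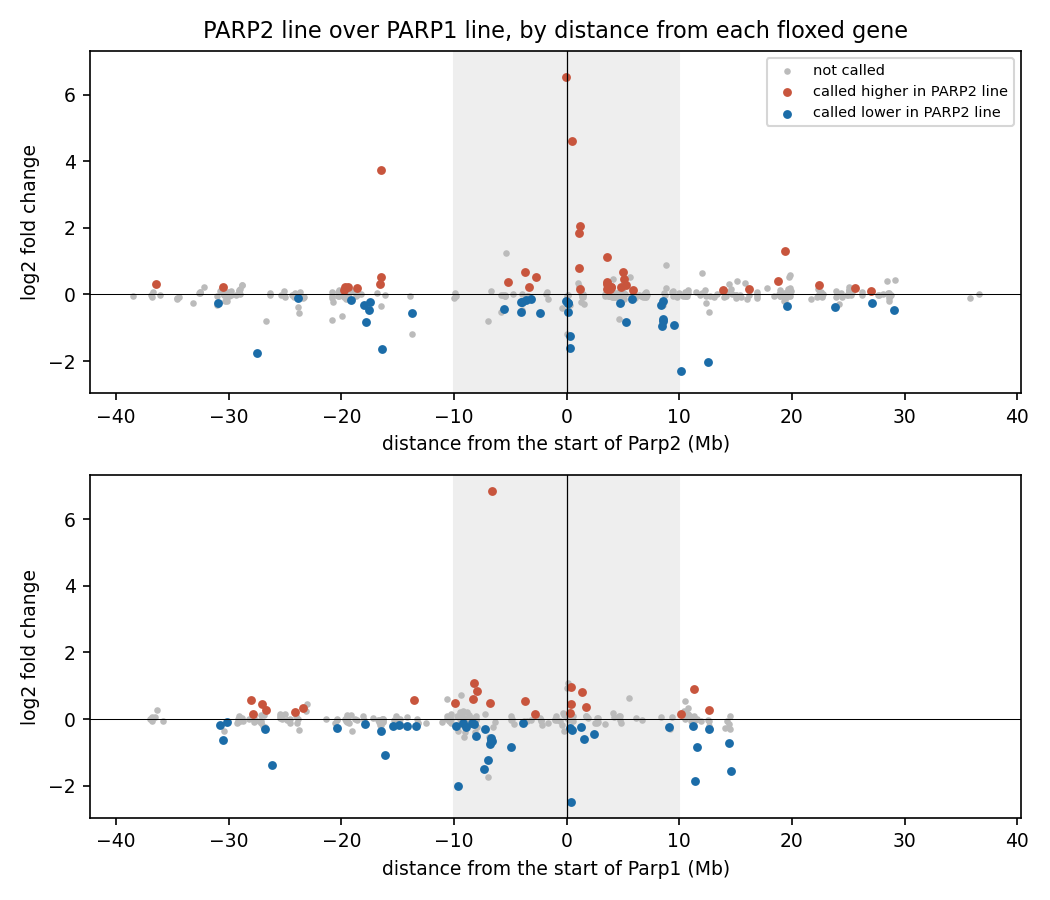
Log2 fold change of the PARP2 line over the PARP1 line (y axis) against the distance in Mb from the start of Parp2 (upper) and Parp1 (lower), 1 point per tested gene. Red and blue mark genes called higher and lower, grey points were not called, and the shaded band covers 10 Mb to each side, where 28.6% and 27.3% of genes were called.

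The chromosome with the densest calls carried neither floxed gene. Among 218 windows of 10 Mb with at least 20 tested genes the median share called was 14.5%, the interquartile range was 11.1% to 19.7%, and the highest share, 50%, was 52 of 104 genes between 120 and 130 Mb on chromosome 2. The window that holds Parp2, 50 to 60 Mb on chromosome 14, ranked 16 with 27.8%. That of Parp1, 180 to 190 Mb on chromosome 1, ranked 22 with 26.1%. Windows on several chromosomes with no floxed gene ranked above both. Over the stretch from 90 to 130 Mb on chromosome 2, chosen after the values were seen, 105 of 248 genes were called (42.3%), 47 higher and 58 lower, 21 of them by more than 2-fold. It holds Rag1, Mybpc3, Fbn1, Map1a, Gchfr, Gm14085, Spint1 and Hdc, which are 8 of the 30 genes with the largest folds, while chromosome 14 held 4. The libraries of the PARP2 line were unlike in this stretch. PARP2 WT replicate 1 lay nearer the PARP1 line mean than its own in 28 of the 105 called genes (26.7%), against 3.81%, 1.9% and 0% in the other PARP2 line libraries, and against 8.17% for the same library in calls elsewhere. For Mybpc3 it was at 4.13 CPM and for Spint1 at 2.97 CPM, in each case displaced toward the PARP1 line.

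Some genes known to differ among mouse strains were unlike within the PARP2 line. Ifi202b, an interferon-inducible DNA sensor on chromosome 1 from 173962568 to 173982744, 6.61 Mb from Parp1, had 0, 0, 0 and 13 counts in the PARP1 line and 1150, 1028, 0 and 0 counts in the PARP2 line. The additive fit called it higher (adjusted p = 0.00405), yet only the PARP2 WT libraries were high, and the test of the difference between contrasts gave an adjusted p-value of 0.154. Nlrp1a, an inflammasome sensor, was at 22.5, 19.3, 22.4 and 20 CPM and 9.55, 17.9, 2.08 and 1.74 CPM (adjusted p = 0.0338), with the PARP2CKO libraries far below. Its neighbour Nlrp1c-ps was at 8.17, 8.53, 9.99 and 8.72 CPM and 3.51, 6.15, 0 and 0 CPM, and the additive difference did not pass (adjusted p = 0.0712). Reads may be shared between these copies. Of 20 tested strain-variable genes 4 were higher (background 8.05%) and 5 lower (background 7.71%). The higher count was 2 without any 1 of the WT libraries, and the lower count was 3 without PARP2CKO replicate 1. In the WT contrast 4 were higher and 0 lower (backgrounds 1.92% and 1.24%). In the CKO contrast 1 was higher and 5 lower (backgrounds 4.99% and 5.34%). Nnt, the mitochondrial transhydrogenase that is defective in some C57BL/6 substrains, was at 45.1, 42.6, 45.8 and 43.5 CPM and 57.9, 76.5, 73.5 and 57.9 CPM, so reads were counted in every library, and it was higher in the PARP2 line (log2 0.59 ± 0.09; adjusted p = 0.00325).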

How the data were processed

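RNA of 8 libraries was sequenced on a stranded total RNA kit. The deposited counts per gene were made by the authors from reads mapped to mm10, and their processing notes name TopHat2 2.0.12, featureCounts, Picard 1.127 and FastQC 0.11.2. The annotation and whether counting used the strand are not given in the sources used here, so overlapping genes and near copies may share counts. Counts were tested as deposited in R 4.3.3 with edgeR 4.0.16 (TMM, filterByExpr, quasi-likelihood test, genotype and line as terms, Benjamini-Hochberg threshold 0.05). WT and CKO contrasts and their difference came from a fit with a mean per group. CPM were scaled to TMM-adjusted library size, and fold changes are fitted. Each p-value of the main edgeR fits sets a difference against a residual spread shared over all 8 libraries. In the additive fit this spread also includes any departure of the lines from a common genotype effect. Alternatives used DESeq2 1.42.0, limma 3.58.1 voom, a likelihood-ratio test, other scaling, filters and windows, a replicate block, no genotype term, and leaving out each library.

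Genes named were Parp1, Parp2, Lyz1 and Lyz2, the 15 called genes of largest fold in each direction whose lines did not overlap and whose higher mean was at least 1 CPM, the 10 most abundant of the called genes without overlap, the 10 called genes nearest each floxed gene, called list members, and genes with a called difference between contrasts. For the genes of largest fold and the most abundant genes, non-overlap was a condition of naming and adds no further evidence. The comparison, genes and lists were chosen with earlier results of these data known. Positions are from GENCODE M21 on GRCm38 for 22750 of 24062 symbols and from RefSeq for 226, or 949 by an older symbol, and promoters from RefSeq. Mitochondrially encoded genes were not analysed here, and some genes that the rule names are not reported here. On 3 simulated tables of 13197 genes with 200 changed, the quasi-likelihood test recovered 73.1%, 90.5% and 97% of changes of 0.5, 1 and 2 (log2), and 39 of 560 calls (6.96%) were false. In each group the duplicates differed beyond sampling noise. Figures were drawn with matplotlib 3.10.9.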

Additional observations from a re-analysis of the deposited data

Results flagged for a closer look

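Among the 64 genes named by rule, the 4 libraries of each line were searched for 1 library far from the other 3, in 128 tests. There were 11 such cases, several of them in the same library, and chance gives about 1 in 20 tests. PARP2 WT replicate 1 accounted for 5. It was low for Mybpc3 (4.13 CPM, the others 7.78 to 8.07) and Ang (3.22 CPM, the others 3.91 to 4.01). It was high for Spint1 (2.97 CPM, the others 0.166 to 0.184), Hdc (5.53 CPM, the others 0.805 to 0.980) and Cecr2 (0.726 CPM, the others 0.302 to 0.331). Mybpc3, Spint1 and Hdc lie on chromosome 2. PARP2 WT replicate 2 accounted for 3, at Parp1 and 2 of its neighbours on chromosome 1. It had 155 CPM of Parp1 (the others 251 to 264), 61.0 CPM of Srp9 (the others 42.4 to 44.7) and 0.211 CPM of Lefty1 (the others 0 to 0.0168). The remaining 3 were small, with Apex1 at 83.5 CPM in PARP1 WT replicate 1, Pnp at 82.2 CPM in PARP2CKO replicate 2 and Ccnb1ip1 at 0.0221 CPM, a single count, in PARP1CKO replicate 2.

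The line difference differed between WT and CKO cells for 2 genes. For Parp2 it was 0.27 in WT and -0.55 in CKO on the log2 scale, with a difference of -0.82. For Nlrp1c-ps the fitted difference was -11.1, which depends on the prior count because both PARP2CKO libraries held 0 counts of it.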

How the results depend on the processing

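With 8 libraries and 5 residual degrees of freedom, low genes and small differences are the least certain. Lists and positions are descriptions with no test. Under a stricter threshold of 0.01 the line difference called 756 genes (414 higher, 342 lower), and 14.4% near Parp1 and 17.5% near Parp2. Library size scaling without a composition factor gave 682 higher and 1829 lower, and it shifted the median of all genes by -0.05. Leaving out 1 library gave 1141 to 1995 calls (597 to 1014 higher, 544 to 981 lower), fewest without PARP2CKO replicate 1. The WT contrast called 910 genes with the likelihood-ratio test, 872 without a filter on low counts and 85 to 566 when 1 library was left out (85 without PARP1 WT replicate 1, 167 and 146 without PARP2 WT replicates 1 and 2). The CKO contrast called 234 to 1458 (234 without PARP2CKO replicate 1, 456 without PARP1CKO replicate 2, 660 without PARP2CKO replicate 2). The difference between contrasts called 45 genes with DESeq2, 72 with the likelihood-ratio test, 61 without the filter and 1 to 16 when 1 library was left out. The cause of these shifts was not tested. Replicate numbers are shared by the groups, but correlations of deviations between same-numbered libraries of the lines were -0.0486 for WT and 0.0606 for CKO, and within the lines 0.147 for PARP2 and -0.133 for PARP1. Not every pair exceeded 0.1, so the libraries are taken to share only a number. With the replicate block 1900 genes were called (973 higher, 927 lower). None of the 64 named genes changed sign under any setting, but the medians of 6 of 33 lists did, all between -0.15 and 0.11 as reported. Of 64 named genes over 8 leave-one-out fits, 468 of 512 results kept their side of the threshold, 42 lost the call and 2 gained it. Under the other settings 621 kept it, 7 lost it and 7 gained it.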

Other observations

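Further gene groups were described by their counts, beside 8.05% higher and 7.71% lower over all genes tested. Of 19 immediate-early genes 2 were higher and 1 lower in the PARP2 line, and the higher count was 4 without PARP1 WT replicate 2 or PARP2 WT replicate 1 and 1 without any 1 of 5 other libraries. Egr2, a zinc finger factor of early responses, was at 4.60, 4.68, 4.44 and 4.71 CPM in the PARP1 line and 10.9, 11.1, 12.5 and 9.88 CPM in the PARP2 line, 2.41-fold higher with no overlap (log2 1.27 ± 0.08; adjusted p = 2.69e-05). Junb was higher by 0.27 ± 0.08 and Btg2 differed by -0.47 ± 0.10. Of 15 p53 target genes 4 were higher and 2 lower. The higher count was 2 under library size scaling alone, with the replicate block, and without any 1 library except PARP1 WT replicate 2 and PARP1CKO replicate 1, and the lower count was 1 in 5 of these 6 leave-one-out fits. Phlda3, a p53-induced Akt inhibitor, was at 8.09, 9.59, 10.3 and 7.14 CPM and 12.6, 12.7, 12.8 and 13 CPM (adjusted p = 0.00797), and Zmat3, Mdm2 and Bax were higher by 0.30 ± 0.05, 0.23 ± 0.07 and 0.12 ± 0.04, whereas Pmaip1 and Trp53inp1 differed by -0.49 ± 0.10 and -0.17 ± 0.04. Of 22 hypoxia and glycolysis genes 4 were lower and 1 higher, and the higher call was lost without any 1 of 5 libraries. Pdk1, a kinase that inhibits pyruvate dehydrogenase, was at 61.8, 44.5, 40.6 and 38.1 CPM and 38.3, 20, 20.3 and 21 CPM (log2 -0.89 ± 0.17; adjusted p = 0.00806), and PARP2 WT replicate 1 lay near the PARP1CKO libraries. Of 11 heat shock genes none was called by edgeR's quasi-likelihood test in the additive fit, 5 had an unadjusted p-value below 0.05, and DESeq2 called 1. In the CKO contrast 1 of them was higher (background 4.99%).

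All 8 libraries contained Y-linked transcripts. Ddx3y had between 3044 and 5235 counts and Kdm5d between 1137 and 1736, while Xist had at most 3 counts in any library. None of 4 Y-linked genes was called between the lines by edgeR's quasi-likelihood test or under any other setting, and none had an unadjusted p-value below 0.05. Eif2s3y had 1478 counts in PARP1CKO replicate 2 and at least 3136 in each of the other libraries.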
